A study of Mus musculus with 6 samples.

Results

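The genes described here are 38 members of the transforming growth factor beta (TGF-beta) and bone morphogenetic protein (BMP) pathway, chosen by symbol: ligands, receptors, secreted antagonists, SMAD proteins and ID targets. Of the 16593 genes named on the array, these 38 included 36 with a probe in the annotation used, while Gdf15 and Smad7 had none there and were not analysed here. A probe was tested if its detection p-value was under 0.05 on at least 3 of the 6 arrays, and the brightest such probe stood for its gene. By this rule 28 members were tested, of 9246 tested genes in all, and 8 were not.

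RNA came from CD45-enriched cells of the cecum of 3 HBUS mice, with 3 samples from a serrated polyp (labelled SP) and 3 from the normal, distal part of the surrounding cecum (labelled Surrounding). The polyp and surrounding samples with the same number came from the same mouse, so that there were 3 pairs. Both groups carry the HBUS genotype and neither has a wild-type counterpart here; the labels give the strain by name only, with no age. As background, HBUS mice express the EGF receptor ligand HB-EGF and the viral chemokine receptor US28 as transgenes in the intestinal epithelium. Cells were taken after EDTA had loosened the epithelium and dispase had digested the rest, and each sample was hybridised to 1 Illumina mouse BeadChip array. The question the comparison addresses is which transcripts of these samples, a mixture of cells, differ between the polyp and the nearby cecum of the same animal.

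TGF-beta family ligands bind a pair of type II and type I receptor kinases, which phosphorylate SMAD proteins that enter the nucleus together with the common partner SMAD4. TGF-beta and activin signal mainly through SMAD2 and SMAD3, and BMPs through SMAD1 and SMAD5, with ID genes among the direct BMP targets. In the gut, BMPs from the mesenchyme restrain the crypt, TGF-beta acts on T cells and on class switching to IgA, and inherited loss of SMAD4 or BMPR1A is known in humans to cause juvenile polyposis.

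The arrays held a mixture of cells that differed between the groups. Between 49.3% and 53.7% of probes were detected per array, with the lowest share in the polyp sample of mouse 3. Ptprc, which encodes CD45, was lower in polyp samples and was detected on 2 of 3 polyp arrays and 3 of 3 surrounding arrays. Its probe was dim, with scanner intensities of 106.8, 130.3 and 94.7 in polyp samples and 142.8, 157.7 and 132.1 in surrounding samples. Krt8, the brightest tested epithelial marker, read 13959.3, 15555.3 and 12617.3 in polyp samples and 12460.5, 12843.6 and 13159.2 in surrounding samples. Intensities of different probes do not give shares of cells. The tested markers that passed in limma as lower were 7 of 7 for T cells, 4 of 5 for smooth muscle and 5 of 5 for B cells, and those that passed as higher were 7 of 7 for endothelial cells and 6 of 7 for neutrophils. Of epithelial markers 2 of 7 were higher. Of the 8 genes listed as fibroblast markers 1 passed, Thy1, which was lower (-1.04 in log2 units). The median change of that list was -0.16. Whether the fall of Thy1 was one of fibroblasts or of other cells was not tested. Of macrophage markers 0 of 6 passed (6 of 6 at an unadjusted p under 0.05, all below 0). The summed normalised intensity of the epithelial markers was 28490 to 30330 on polyp arrays and 24940 to 25420 on surrounding arrays, that of the endothelial markers 2638 to 3044 on polyp arrays and 1467 to 1733 on surrounding arrays, and that of the T cell markers 656 to 1338 on polyp arrays and 1546 to 4581 on surrounding arrays. These samples are bulk extracts, so fewer cells of a type and less RNA per cell cannot be told apart. The part of these shifts in the changes given below was not tested.

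In polyp samples 2 of the 28 tested members rose, Bmp3 and Inhbb, and none fell (limma, adjusted p under 0.05 over all 13409 tested probes; at an unadjusted p under 0.05 stood 6, of which 3 were lower). That was 7.14% of the members, against 11.5% of all tested genes (5.00% higher and 6.46% lower) and 10.4% of all tested probes. The median change of the members, polyp minus surrounding, was 0.03 on the log2 scale, against 0.02 over all tested genes, and the median size of the change, whatever its sign, was 0.13 among members and 0.16 among all tested genes. The share of members that passed was thus no higher than that of the array as a whole, and is no result about the pathway. With the arrays brought to a common median in place of quantile normalization, the median change of the members was -0.03. Changes are of log2 normalised intensity with the standard error (SE) of the fit over 3 pairs, and intervals are 95% intervals of the same fit, not adjusted for the number of genes. Directions and overlaps also refer to normalised values. The median scanner intensity in mouse 3 was 97.3 in the polyp and 106 in the surrounding sample. Some directions differ on that scale, as for Acvr1, Smad3, Chrd and Timp1, which read lower in the polyp of mouse 3. The constant of 16 added to the background-corrected intensities makes folds of dim probes smaller than they would be with no constant. Background subtraction acted the other way, as for the dim probe of Inhbb, at 0.62 with it and 0.22 without it. The folds of dim probes are therefore not lower limits.

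**Figure D1:**
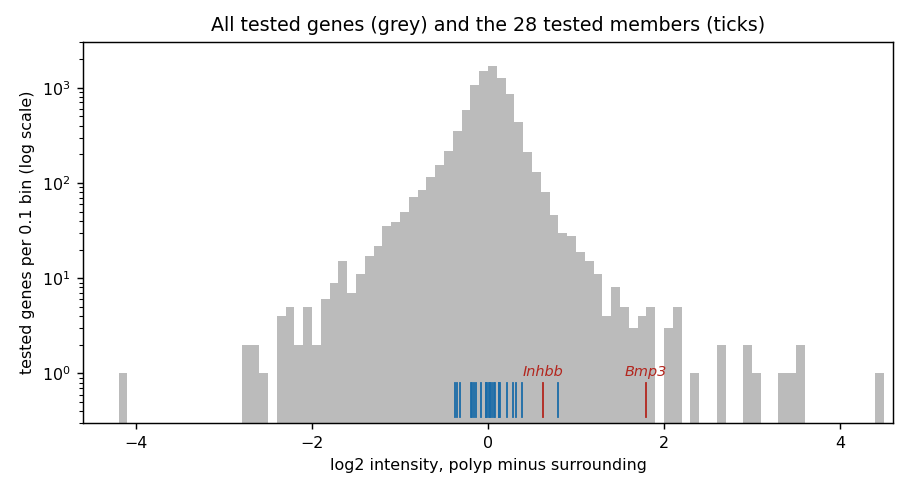
Number of tested genes by their change in log2 intensity, polyp minus surrounding (x axis, bins of 0.1, y axis on a log scale), with each of the 28 tested members as a tick; red ticks passed the test. Most members lie in the centre of the distribution, Inhbb at 0.62 and Bmp3 at 1.80.

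Bmp3 encodes an atypical BMP that opposes the action of other BMPs, and its human counterpart is known for promoter methylation in colorectal tumours. In log2 units it read 6.95, 6.96 and 7.19 in polyp samples, in the order of mice 1 to 3 used throughout, against 4.70, 5.26 and 5.75 in their surrounding partners. All polyp samples lay above all surrounding samples, and the polyp values were close to each other while the surrounding values spread over about 1 log2 unit. On the scanner's own scale the probe read 192.4, 226.5 and 186.1 in polyp samples and 105.8, 119.2 and 137.6 in surrounding samples. Its detection p-value was 0.02 in the surrounding sample of mouse 1 and 0, as rounded in the table, on the other 5 arrays. This is a 3.48-fold rise, or 1.80 ± 0.16 in log2 units (SE over 3 pairs, interval 1.40 to 2.20, limma adjusted p = 0.00357), with differences of 2.26, 1.70 and 1.44 in the 3 mice. Only 24 of the 9246 tested genes had a larger rise. Background subtraction mattered for the size: the deposited processed values, made without it, gave a rise of 0.84 ± 0.06 (limma adjusted p = 0.00446). It passed the test in all 13 alternative settings, with a change of 0.84 to 1.98. Bmp3 has 1 probe, so that the mean over the probes of a gene only repeats the reported result.

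Inhbb and Inhba encode the beta subunits of activin B and activin A, ligands that signal through SMAD2 and SMAD3. Inhbb read 5.78, 5.79 and 5.67 in polyp samples, against 5.14, 5.30 and 4.94 in surrounding samples. After normalization the groups did not overlap, and the 3 polyp values lay close together. On the scanner's own scale the probe read 130.1, 145.1 and 115.3 in polyp samples and 115.8, 120.2 and 111.9 in surrounding samples. There the groups overlapped, and the polyp values did not lie close together. The rise was 1.54-fold, or 0.62 ± 0.10 (SE over 3 pairs, interval 0.39 to 0.86, limma adjusted p = 0.016). The probe was dim, and in the authors' processed values the rise was 0.22 (limma adjusted p = 0.0424). The rise was 0.69 without mouse 2 (limma adjusted p = 0.0677), 0.56 without mouse 3 (limma adjusted p = 0.0804) and 0.62 in an unpaired model (limma adjusted p = 0.083), so that it kept nearly its size and missed the threshold, in fits where 3.53%, 4.52% and 1.57% of all tested genes passed. Without mouse 1 it was 0.61 and passed (limma adjusted p = 0.0148), in a fit where 15.4% of all tested genes passed.

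Inhba showed a different picture, with 6.79, 6.79 and 5.86 in polyp samples and 4.84, 7.14 and 5.07 in surrounding samples. It was higher in the polyp of mice 1 and 3, by 1.95 and 0.79, while in mouse 2 the surrounding sample held the highest value of all 6 and the difference was -0.35. The groups overlapped, and the mean difference of 0.80 ± 0.39 missed the threshold (interval -0.16 to 1.76, limma adjusted p = 0.249). Without mouse 2 the difference was 1.37 (limma adjusted p = 0.0591) and without mouse 1 it was 0.22. With the arrays brought to a common median, where eBayes gave every probe the same variance, the adjusted p of limma was 0.000787. Inhba had the widest interval of the 28 tested members, so that neither a rise as large as that of Inhbb nor no change lies outside it.

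**Figure D2:**
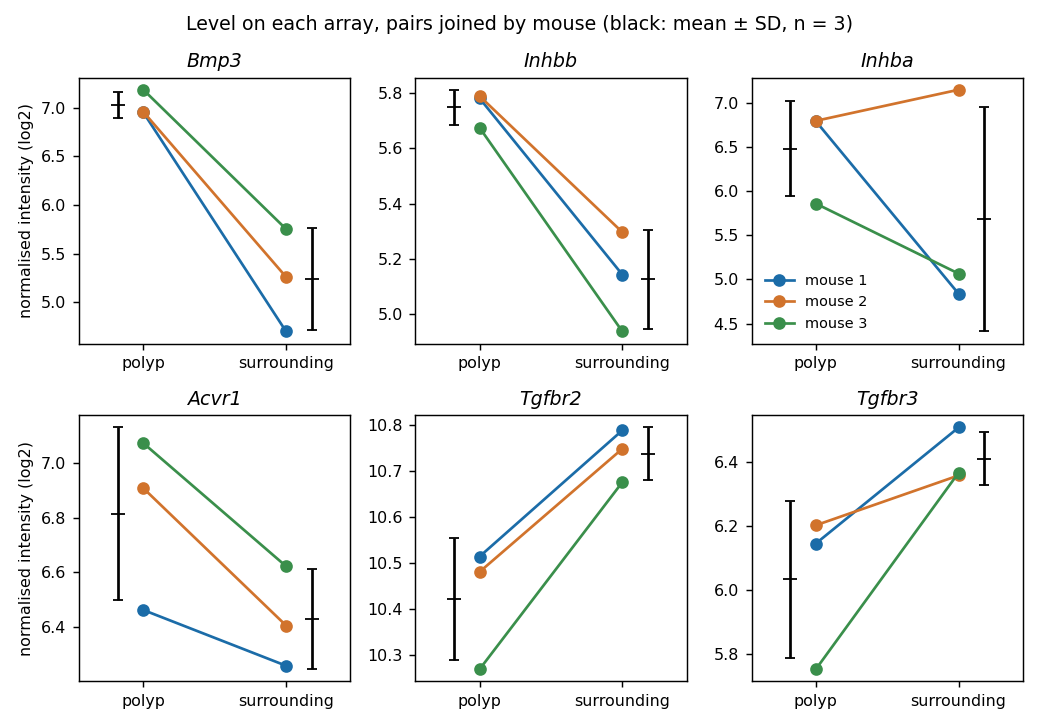
Log2 normalised intensity (y axis, a separate scale in each panel) of 6 members in polyp and surrounding samples, with the samples of a mouse joined by a line and the mean ± SD of the 3 samples in black. Bmp3 and Inhbb are higher in the polyp of every mouse, Inhba is lower in that of mouse 2, Acvr1 is higher and Tgfbr2 and Tgfbr3 are lower in every mouse without passing the test.

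The start regions of the activin subunit genes are shown because Inhbb passed the test and its sister gene Inhba did not; the difference between their changes was not tested. The sequences are the 250 bases before the annotated start, from RefSeq, build GRCm38.p6, with the 4-base core of the SMAD binding element, GTCT or its complement AGAC on either strand, in capitals. Inhbb lies on the minus strand at chr1:119422249-119422498 and Inhba on the plus strand at chr13:16011601-16011850.
Inhbb: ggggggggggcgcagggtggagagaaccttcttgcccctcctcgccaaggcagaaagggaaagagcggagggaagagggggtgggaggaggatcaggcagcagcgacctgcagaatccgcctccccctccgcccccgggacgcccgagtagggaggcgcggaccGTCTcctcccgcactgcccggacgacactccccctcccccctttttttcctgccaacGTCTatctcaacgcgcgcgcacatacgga
Inhba: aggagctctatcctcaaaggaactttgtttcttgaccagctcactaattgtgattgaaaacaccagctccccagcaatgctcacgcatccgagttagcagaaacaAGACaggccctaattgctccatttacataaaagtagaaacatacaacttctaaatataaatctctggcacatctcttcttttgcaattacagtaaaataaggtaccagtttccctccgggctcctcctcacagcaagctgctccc
The Inhbb window held 2 such cores and 68.0% G and C, and the Inhba window 1 core and 43.2% G and C, against a median of 52.4% over 32851 promoter windows of the same length. The core is so short that 82.9% of these windows held it, with a median of 2, and the longer BMP-type motif GGCGCC, found in 9.6%, was in neither. A match is a description of the letters and not evidence of binding. RefSeq promoter sequences were matched for 25 of the 38 members.

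Among the TGF-beta ligands none passed the test. Tgfb1, the isoform of leukocytes, read 7.10, 7.41 and 6.54 in polyp samples and 7.17, 7.52 and 6.74 in surrounding samples. It was slightly lower in the polyp of each mouse (-0.13 ± 0.09, limma adjusted p = 0.384), and its interval of -0.35 to 0.08 leaves room for a small fall and a still smaller rise. The mice differed from each other by more than the groups did. Tgfb2 averaged 5.03 ± 0.31 in polyp samples and 5.06 ± 0.12 in surrounding samples, and Tgfb3 5.08 ± 0.51 in polyp samples and 5.01 ± 0.22 in surrounding samples (SD, n = 3 each). Both were dim, were detected on 2 of 3 polyp arrays, and differed in sign between mice. Ltbp1, which holds latent TGF-beta in the matrix, read 4.70, 4.96 and 4.80 in polyp samples and 5.20, 4.99 and 5.32 in surrounding samples. Its groups did not overlap, yet the difference of -0.35 ± 0.13 did not pass (limma adjusted p = 0.144), and a second, dimmer probe gave -0.14. Bmp1, despite its name a metalloprotease that trims procollagen and chordin, differed by 0.13 ± 0.11.

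Of the other BMP ligands, Bmp4, a mesenchymal BMP of the gut, read 6.25, 7.24 and 7.32 in polyp samples and 6.67, 6.69 and 7.07 in surrounding samples. The polyp of mouse 1 was lower and those of mice 2 and 3 higher than their partners, so that the difference of 0.13 ± 0.19 (limma adjusted p = 0.705, interval -0.33 to 0.59) had no common direction. Bmpr1a, a type I BMP receptor, split in the same way, by -0.34 in mouse 1 and by 0.42 and 0.29 in mice 2 and 3. A second Bmpr1a probe split the other way, by 0.25 in mouse 1 and by -0.06 and -0.02 in mice 2 and 3, so that the direction within a mouse depended on the probe. Bmp5 sat at the edge of the detection rule: it was detected on 1 polyp and 2 surrounding arrays and differed by 0.02. Id4, also detected on 1 polyp and 2 surrounding arrays, was likewise just inside. Bmp2 and Bmp7 were just outside, with 2 detected arrays each. Bmp2 was detected on 2 polyp arrays and no surrounding array, with scanner intensities of 101.8, 109.6 and 90.5 in polyp samples and 100.7, 98.7 and 95.7 in surrounding samples. Bmp7 was detected on no polyp array and 2 surrounding arrays, with 95.7, 106.8 and 89.7 in polyp samples and 102.7, 110.5 and 103.6 in surrounding samples. Bmp6 was detected on no array.

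Of the 6 tested receptor genes, 5 kept 1 direction in the 3 mice, or 83.3%, against 51.7% of all tested genes, and none passed. These 5 did not share a direction: Tgfbr1, Tgfbr2 and Tgfbr3 were lower, and Acvr1 and Bmpr2 higher. With 6 genes this count is a description and no result about receptors. Acvr1, a type I receptor for BMPs, read 6.46, 6.91 and 7.07 in polyp samples and 6.26, 6.41 and 6.62 in surrounding samples. After normalization it was higher in the polyp of every mouse, by 0.20, 0.50 and 0.45, although the groups overlapped (0.39 ± 0.10, limma adjusted p = 0.0688, interval 0.14 to 0.64). Its scanner intensities were 160.2, 220.9 and 177.7 in polyp samples and 158, 168.9 and 186.6 in surrounding samples, so lower in the polyp of mouse 3. Without mouse 1 Acvr1 passed (limma adjusted p = 0.0316), in a fit where 15.4% of all tested genes passed. Tgfbr2, the type II TGF-beta receptor, read 10.51, 10.48 and 10.27 in polyp samples and 10.79, 10.75 and 10.67 in surrounding samples. It was lower in every mouse with no overlap (-0.32 ± 0.09, limma adjusted p = 0.0856, interval -0.54 to -0.09), and a second probe gave -0.28. Tgfbr2 passed in 4 of 13 alternatives, among them the authors' processed values (-0.30, limma adjusted p = 0.0259), where its change was nearly the same. Another of the 4, the fit without background correction, rests on nearly the same values as these. Tgfbr3, the coreceptor betaglycan, read 6.14, 6.20 and 5.75 in polyp samples and 6.51, 6.36 and 6.37 in surrounding samples. Its difference of -0.38 ± 0.12 did not pass (limma adjusted p = 0.101) and passed in 0 of 13 alternatives. Tgfbr1, the type I TGF-beta receptor, differed by -0.09 ± 0.09, and the type II BMP receptor gene Bmpr2 by 0.13 ± 0.10. A dimmer Bmpr2 probe was detected on 2 polyp arrays and 0 surrounding arrays, and so was not tested. Its differences were 0.04, 0.92 and 0.39 in the 3 mice. Acvr1b and Acvr2a, activin receptors, were detected on no array.

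**Figure D3:**
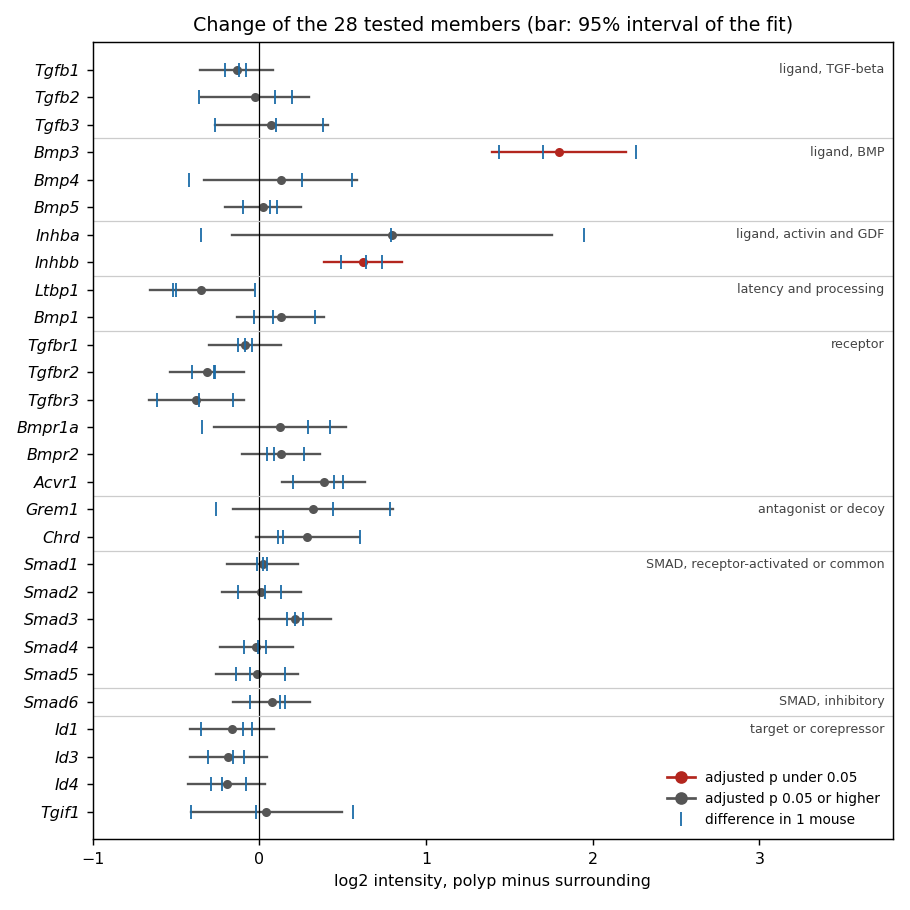
Change of each of the 28 tested members, polyp minus surrounding in log2 intensity (x axis), with its 95% interval as a bar and the difference in each mouse as a blue mark, ordered by role. Bmp3 and Inhbb, in red, passed the test. The SMAD genes have short intervals and, apart from Smad3 at 0.21, lie close to 0. Inhba has the widest interval.

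Few antagonists could be measured. Grem1, a BMP antagonist of the gut's mesenchyme, averaged 6.38 ± 0.47 in polyp samples and 6.06 ± 0.06 in surrounding samples (SD, n = 3 each). It was higher in the polyps of mice 1 and 2, by 0.44 and 0.78, and lower in that of mouse 3, by -0.26 (0.32 ± 0.20, limma adjusted p = 0.345, interval -0.16 to 0.80). Chrd, the BMP-binding chordin, read 5.44, 5.12 and 5.16 in polyp samples and 4.84, 5.01 and 5.02 in surrounding samples. The groups did not overlap, but mouse 1 gave most of the difference of 0.29 ± 0.13 (limma adjusted p = 0.207). Nog, Fst and Bambi, which encode noggin, the activin-binding follistatin and a decoy receptor, were detected on no array, so that a change in them was not detectable here.

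By their brightest probes, all 6 tested SMAD genes had intervals within 0.5 of 0, and none passed. Smad4 read 10.66, 10.70 and 10.84 in polyp samples and 10.67, 10.66 and 10.93 in surrounding samples, a difference of -0.02 ± 0.09 with an interval of -0.24 to 0.20. Smad1, Smad2 and Smad5 differed by 0.02, 0.01 and -0.01, with intervals that stayed within 0.26 of 0. The signs of these small differences turned under other settings and carry no direction. Dimmer tested probes were less close to 0 in part. They gave 0.04 ± 0.09 and 0.22 ± 0.17 for Smad1, and -0.15 ± 0.14 and 0.21 ± 0.11 for Smad5, and none passed. Smad3, the SMAD of TGF-beta and activin, was 0.21 ± 0.09 higher, in each of the 3 mice and with no overlap, and did not pass (limma adjusted p = 0.184). Smad6, an inhibitory SMAD that BMP signals induce, differed by 0.07 ± 0.09.

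Target genes did not pass either. Id1 averaged 9.12 ± 0.20 in polyp samples and 9.28 ± 0.20 in surrounding samples (SD, n = 3 each). Each polyp was below its partner, by 0.04 to 0.35 (-0.16 ± 0.10, limma adjusted p = 0.362). Id3 read 6.97, 6.59 and 6.55 in polyp samples and 7.28, 6.75 and 6.65 in surrounding samples, also lower in each mouse (-0.19 ± 0.09, limma adjusted p = 0.263). Id4 differed by -0.20 ± 0.09 (limma adjusted p = 0.238). These proteins bind helix-loop-helix transcription factors and block them. The interval of Id1 ran from -0.41 to 0.09 and that of Id3 from -0.42 to 0.05, so that a fall beyond 0.5 and a rise beyond 0.1 lie outside both. Tgif1, a corepressor of SMAD2, read 8.54, 7.50 and 7.56 in polyp samples and 7.98, 7.91 and 7.58 in surrounding samples, high in the polyp of mouse 1 alone, and differed by 0.04 ± 0.18.

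Over the 28 tested members, 17 had an interval that stayed within 0.5 of 0, or 60.7%, against 63.8% of all tested genes. Groups did not overlap for 8 members, or 28.6%, against 20.2% of all tested genes. In the 3 mice 14 members kept 1 direction, or 50%, against 51.7%. The differences between these shares were not tested. At an unadjusted p under 0.05 stood 21.4% of members and 28.9% of all tested genes. Of the 9 members with several tested probes, 4 had probes of opposite sign (Smad5, Smad6, Tgfbr1 and Tgif1), all with small changes, and 0 had a further probe that passed.

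A wider list of 79 other genes of the family and its regulators gave 42 tested genes, of which 4 rose and 1 fell, or 11.9%, close to the 11.5% of all tested genes. Nbl1, which encodes the secreted BMP antagonist DAN, read 8.48, 8.28 and 8.51 in polyp samples and 6.94, 7.08 and 7.84 in surrounding samples (1.14 ± 0.17, limma adjusted p = 0.0147). Its groups did not overlap, and mouse 3 differed least. Ccn2, the connective tissue growth factor and a TGF-beta target, read 9.30, 9.52 and 9.41 in polyp samples and 8.13, 8.87 and 8.40 in surrounding samples (0.94 ± 0.12, limma adjusted p = 0.0100). Eng, the endothelial coreceptor endoglin, read 7.15, 7.61 and 7.49 in polyp samples and 6.41, 6.67 and 6.45 in surrounding samples (0.91 ± 0.10, limma adjusted p = 0.00592). It stood beside a rise of 7 of 7 endothelial markers, with a median change of 0.80; their part in the rise of Eng was not tested. Timp1, an inhibitor of matrix metalloproteinases that TGF-beta induces, read 6.36, 6.89 and 6.30 in polyp samples and 5.47, 5.76 and 5.89 in surrounding samples (0.81 ± 0.15, limma adjusted p = 0.0257). Id2, an ID gene needed by NK and innate lymphoid cells, read 7.30, 6.59 and 6.35 in polyp samples and 7.71, 7.33 and 6.98 in surrounding samples, lower in every mouse (-0.60 ± 0.10, limma adjusted p = 0.0222). Its groups overlapped, since mice differed in level, and a second, dimmer Id2 probe did not pass. Id2 fell beside 7 of 7 T cell, 5 of 5 B cell and 4 of 5 smooth muscle markers, with median changes of -1.49, -1.65 and -1.03. Endothelial (7 of 7) and neutrophil markers (6 of 7) rose. No markers of NK or innate lymphoid cells were listed. The part of any of these cells in the fall of Id2 was not tested. Without mouse 2, Ccn2 and Eng alone of the wider list passed, and without mouse 3, Eng, Nbl1 and Timp1 of these 5 did; without mouse 1 the list had 7 higher and 2 lower genes, these 5 among them, in a fit where 15.4% of all tested genes passed. In an unpaired model, Eng was the only one of these 5 that passed.

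**Figure D4:**
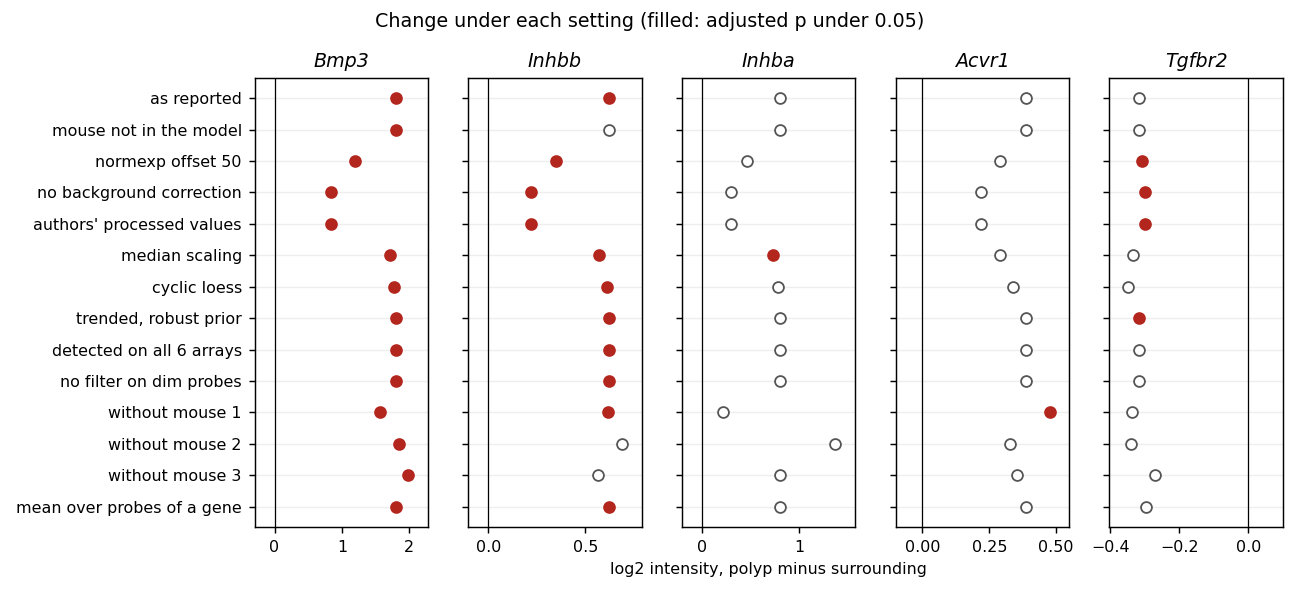
Change of 5 members, polyp minus surrounding in log2 intensity (x axis, a separate scale in each panel), as reported and under each of the 13 alternatives (rows); filled points passed the test. Bmp3 passed in all rows, Inhbb in all but 3 alternatives, and Inhba, Acvr1 and Tgfbr2 in 1, 1 and 4 alternatives.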

How the data were processed

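Per the file headers, the deposited scanner table gives each probe an intensity on every array, with linear values, and a detection p-value beside it. The authors' deposited processed intensities lay within 0.005 of quantile normalized scanner values without background subtraction. GenomeStudio and limma 3.14.4 are named in the submitters' processing notes, without a role, and the genome build is not given in the sources used here. Arrays have no sequencing depth; their number, 3 pairs, limits the precision.

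Here, in R 4.3.3 with limma 3.58.1, scanner intensities were corrected by normexp (background estimated from the detection p-values, offset 16), quantile normalized and converted to log2. Of 25697 probes, 13409 were tested. The platform annotation gave 1 symbol for 23978 probes and none for 1719, and 0 symbols changed when updated through RefSeq. A paired model (mouse, and polyp against surrounding) was fitted with lmFit and eBayes, with 2 residual and 4.04 prior degrees of freedom; p-values are two-sided and Benjamini-Hochberg adjusted over all tested probes, threshold 0.05. The fit was run on simulated data whose noise followed its own assumptions. That checks the computation and not whether those assumptions hold here. Same-numbered samples come from the same mouse, per the series' design text, and their deviations from the group means correlated by 0.571, 0.564 and 0.614 across probes.

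The members and lists were chosen with earlier results of these data known. All 38 members are accounted for; values on every array are given for members that passed, for those with a change of at least 0.5, and for others chosen for their role after their values were seen. Of the wider list, genes that passed are named. The alternatives changed the model, offset, background correction, normalization, variance prior, filter, probe choice and mice used.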

Additional observations from a re-analysis of the deposited data

How the results depend on the processing

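All 13 alternatives were computed, and they are not independent of each other. The authors' processed values and the fit without background correction rest on nearly the same values. The mean over the probes of a gene changes nothing for a gene with 1 tested probe. With mouse left out of the model (no replicate block), 183 probes passed over all tested, 1 member was higher (Bmp3), and in the wider list 1 gene was higher and 0 lower; 1.57% of all tested genes passed in that fit. With the pairing, Bmp3 and Inhbb passed, as reported. The count of lower members was 1 (Tgfbr2) with an offset of 50, in the authors' processed values, in a fit without background correction and with a trended, robust prior, where 13.2%, 12.4%, 12.4% and 14.8% of all tested genes passed. Leaving out each mouse in turn gave 412 to 1927 changed probes, 1 to 3 higher and 0 lower members, 2 to 7 higher and 0 to 2 lower genes of the wider list, and a member median of -0.021 to 0.044. With 1 mouse fewer, pairs and residual degrees of freedom are fewer as well. Without mouse 1, 15.4% of all tested genes passed, without mouse 2, 3.53%, and without mouse 3, 4.52%. With median scaling the member median was -0.026. Without a filter on dim probes all 36 members with a probe had a value, and Bmp3 and Inhbb alone passed.

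Bmp3 and Inhbb kept their direction in all 13 alternatives. Members near 0 turned sign without passing in any fit. With median scaling Smad1, Smad2, Smad6 and Tgif1 were at -0.055, -0.065, -0.031 and -0.045. With cyclic loess Smad1, Smad2 and Tgif1 were at -0.020, -0.019 and -0.0087, Tgfb2 at 0.00058 and Bmp5 at -0.00014. With the mean over a gene's probes Smad5 was at 0.014 and Smad6 at -0.015. With a mouse left out, the ranges were -0.14 to 0.14 for Tgfb2, -0.084 to 0.24 for Tgfb3, -0.084 to 0.40 for Bmp4, -0.018 to 0.084 for Bmp5, -0.024 to 0.36 for Bmpr1a, -0.047 to 0.082 for Smad2, -0.047 to 0.017 for Smad4, -0.098 to 0.052 for Smad5 and -0.22 to 0.27 for Tgif1. The cause was not tested. Signal over background limits the dim members, among them Bmp5, Id4, Tgfb2 and Tgfb3.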
